A study of Glycine max with 8 samples.

Results

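Among the places where all 4 SNAP TFs gave a ChIP-seq peak in both of their replicates, 235 regions lay inside protein-coding genes. They were found by merging the peaks of the 8 libraries wherever they overlapped by at least 1 bp, which gave 21575 regions, of which 1279 held a peak from every library. A region was kept when its midpoint lay inside a protein-coding gene, when no tRNA gene lay within 500 bp, and when none of its peaks reached 1500 bp. Of the 389 regions in all 8 libraries with a midpoint in a protein-coding gene, 37 were left out for a tRNA gene and 117 for a wide peak. The 235 sites lay in 231 genes, which are 0.493% of the 46816 protein-coding genes on the chromosomes. The members were chosen by the peak calls and peak widths. Because the rule asked for a peak in every library, the presence of a peak is not a finding here, and the heights, widths and positions of the peaks are what is described.

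SNAP1, SNAP2, SNAP3 and SNAP4 are NAC TFs of soybean, a plant-specific family of DNA-binding proteins that includes regulators of senescence and of stress responses. A TF can act from a promoter upstream of a gene or from sites within the transcribed part. In chromatin immunoprecipitation followed by sequencing (ChIP-seq), DNA bound to a protein is recovered with an antibody and sequenced, and a peak is a stretch with more reads than the local background.

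All 8 libraries came from transgenic nodulated hairy roots, each expressing a single SNAP TF with a FLAG tag from the soybean pM4 promoter, with the coding sequence taken from the cultivar Williams 82. The groups were FLAG-SNAP1, FLAG-SNAP2, FLAG-SNAP3 and FLAG-SNAP4, with 2 biological replicates each, and all were immunoprecipitated with an antibody against FLAG and tagged on the beads with the Tn5 transposase. The sample labels call the genotype a mutant of each SNAP gene, whereas the methods of the study describe tagged TFs, and the description in the methods was followed. Neither the labels nor the methods give the nitrogen level or how many roots were pooled. A library from roots lacking a tagged TF was not analysed here, so the recovery of open or abundant chromatin and binding by the TFs cannot be told apart at any site below. The lists held 3628 to 9332 peaks each, fewest in FLAG-SNAP3 replicate 2, and read depth is not known from them. Of the peaks in a library, 2.86 to 6.86% fell in the 235 sites, and their median percentile of fold enrichment among all peaks of that library was 53.0 to 71.7.

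The height of a site in a library is its fold enrichment, the ratio of reads to local background at the summit that MACS2 gave, taken from its highest peak there. Over the 235 sites the mean fold of the 8 libraries ran from 2.47 to 13.9, with a median of 4.997. Only 29 sites had a fold of at least 5 in all 8 libraries, and 3 were among the 100 strongest peaks of all 8. The spread of a site over the libraries, as a coefficient of variation, had a median of 16.9%.

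The strongest site lay deep inside LOC100779257, at chr14:17741798-17742210 of Wm82 a4.v1, in a gene of 100270 bp and 32639 bp from its nearest end. Its fold was 15.1 and 17.4 with FLAG-SNAP1, 10.8 and 13.0 with FLAG-SNAP2, 12.8 and 10.9 with FLAG-SNAP3, and 15.9 and 15.0 with FLAG-SNAP4. The peak stood high with every TF, its summits in the 8 libraries fell within 73 bp, and it ranked between 20 and 79 among the peaks of each library. The next, in LOC102660211 at chr2:3592762-3593380 and 2390 bp from a gene end, had folds of 14.9 and 15.0, 10.2 and 9.81, 12.7 and 12.0, and 14.2 and 15.2 with FLAG-SNAP1 to FLAG-SNAP4. At both sites the FLAG-SNAP2 libraries included the lowest value.

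The third was HDA1, named for a histone deacetylase, a class of enzymes that remove acetyl groups from histones. Its site at chr1:57839848-57840373 crossed a gene end, and the summits of the 8 libraries lay within 16 bp of each other, the closest of all 235 sites. Its fold was 14.8 and 14.6 with FLAG-SNAP1, 11.6 and 11.4 with FLAG-SNAP2, 11.8 and 12.7 with FLAG-SNAP3, and 13.9 and 12.2 with FLAG-SNAP4. The site ranked between 35 and 90 in each library, so it was among the 100 strongest in all 8. The fourth, at chr12:7180101-7180660, lay where LOC100816284 and PARP3 overlap in the annotation, so it cannot be given to 1 of them; PARP3 is named for a poly(ADP-ribose) polymerase, an enzyme family that acts on damaged DNA and chromatin. There the FLAG-SNAP3 libraries were among the highest, with 13.5 and 14.7, and FLAG-SNAP2 had 11.4 and 10.4.

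The 20 strongest sites by mean log2 fold formed a continuous order. Each of the 20 steps from a site to the next was smaller than the larger SD of the 2 sites over the 8 libraries. That SD holds differences among the 4 TFs and between libraries, so it is not replicate error. Compared within libraries, a site stood above the next in 3 to 6 of the 8. Mean folds fell from 13.9 ± 2.37 (SD, n = 8) at the first to 7.71 ± 1.75 (SD, n = 8) at the twentieth, LOC100781164. Between them stood LOC100808365 with 12.4 ± 2.2, LOC100814762 with 12.5 ± 3.17, LOC100499837 with 11.4 ± 1.56, LOC102661456 with 10.01 ± 0.934 and LOC100809372 with 10.3 ± 2.90 (SD, n = 8 each). The annotation used gives no product names for the genes known by a LOC number, so no role is given for them. The tail of the order was LOC100781614, with a mean fold of 2.47, and 2 sites in LOC121173861, with 2.86 and 2.85.

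**Figure D1:**
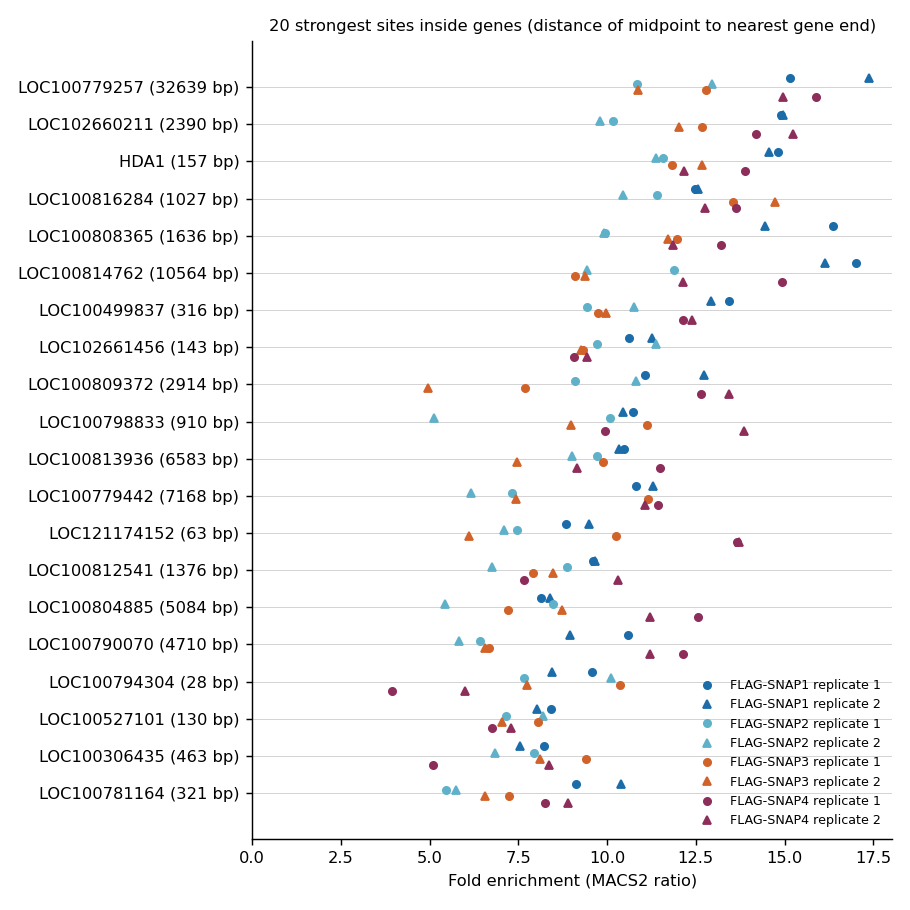
Fold enrichment in each of the 8 libraries at the 20 strongest sites inside protein-coding genes, ordered by mean log2 fold, with the distance in bp from the midpoint of the site to the nearest gene end in brackets; colours are TFs, circles replicate 1 and triangles replicate 2. The first site spans 10.8 to 17.4 and the libraries of neighbouring sites overlap, while FLAG-SNAP3 replicate 2 stands at 4.95 in LOC100809372.

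Position along the gene went with height in the top of this order. Of the 20 strongest sites 11 lay over 1 kb from a gene end, against 21 of all 235, and 15 had all 8 summits within 100 bp, against 25 of all 235. The 13 sites over 2 kb from a gene end had library medians of fold from 5.83 to 11.5, whereas the 101 sites at 200 to 500 bp from an end had 4.22 to 5.57. In every library the median of the 13 was above that of the 101. This grouping was made after the values were seen and is a description. The sites over 2 kb from an end lay in genes with a median of 11868 bp, but such a distance can only occur in a long gene. They were narrow, with a median region of 619 bp and a median spread of summits of 83 bp. The 101 had 1088 bp and 406 bp.

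Most sites lay near a gene end, and most lay in short genes, but the share with both was not counted. Because the annotation used gives no strand, the start of a gene and its 3′ end cannot be told apart, and distances are to the nearer end. The median summit of 175 of 235 sites (74.5%, exact 95% binomial interval 68.4 to 79.9%, for counting error only) lay within 500 bp of an end of its gene, and the region of 169 sites (71.9%) crossed an end. The median summit was itself inside the gene at 217 sites. The genes had a median length of 1931 bp, against 3351 bp over all protein-coding genes, and 168 of them were shorter than that. In 40 cases the region covered the whole gene.

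In a short gene more of the length lies near an end. Midpoints lay within 500 bp of an end at 67.2% of the sites, and positions spread evenly along the same genes would do so at 51.9%. The same 2 values were 63.1 and 32.5% for the 3907 regions inside genes with a peak in 1 library only, under the same limits on width and tRNA genes. The gap between them was thus wider for regions in 1 library than for regions in all 8, but it did not narrow steadily: for the 357 regions in 5 libraries the values were 75.1 and 39.6%. The median gene was 3964 bp for regions in 1 library, 3045 bp for regions in 5, 2158 bp for the 241 regions in 7 and 1931 bp for those in 8. The merged regions lengthened at the same time, from 245 to 963 bp, as they must when more peaks are joined, and the part of gene length in this that comes from region length was not tested.

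**Figure D2:**
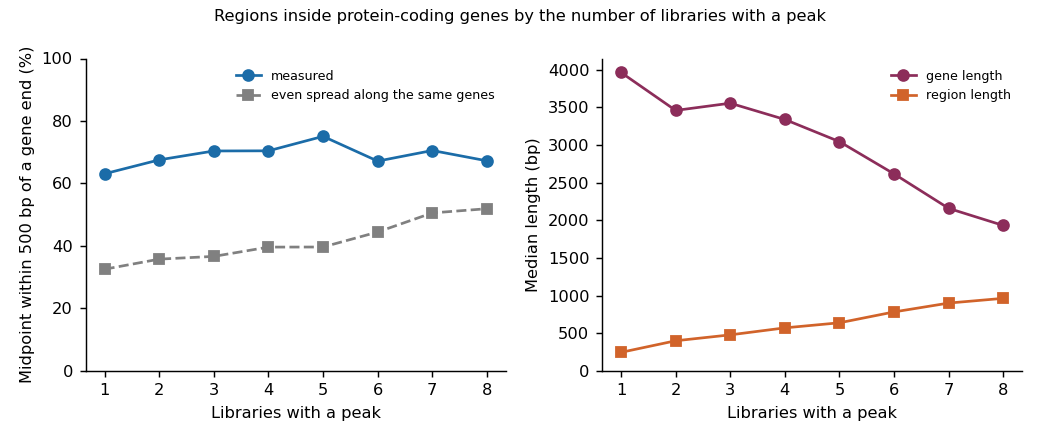
Regions inside protein-coding genes by the number of libraries with a peak; left, the percentage with a midpoint within 500 bp of a gene end, measured (circles) and for positions spread evenly along the same genes (squares); right, median length of the gene and of the merged region in bp. The measured percentage is 63.1% in 1 library and 67.2% in 8, while the even spread rises from 32.5 to 51.9% and median gene length falls from 3964 to 1931 bp.

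A few sites lay at the edge of the rule. The widest peaks kept were 1493 bp in LOC100810865 and 1492 bp in LOC100796704, and the narrowest left out were 1501 bp in LOC121174310 and 1509 bp in LOC100802508. The limit on tRNA genes had no close cases, because the nearest tRNA gene of any kept site was 2713 bp away, from LOC121173225, while LOC100817261 and LOC100782117 were left out with a tRNA gene inside the region. A midpoint in LOC100306193 was 1 bp inside its gene and the midpoint at LOC100780669 was 1 bp outside. The requirement of all 8 libraries decided more: of the 241 regions in 7 libraries, 107 lacked a peak only in FLAG-SNAP3 replicate 2, against 7 to 25 for each other library. Without that library the number of sites was 344, and without any other it was 250 to 263.

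Sites inside genes were lower, wider and less sharply placed than the 184 sites beside genes, whose midpoints fell in no gene but at most 2 kb from the end of a protein-coding gene, under the same limits. The median log2 fold was lower inside genes in 8 of 8 libraries, by 0.02 to 0.25, with a mean difference of -0.16 ± 0.08 (SD, n = 8 libraries; exact two-sided sign-flip permutation test, p = 0.00781, the smallest 8 libraries can give, and the same after Benjamini-Hochberg adjustment over 3 comparisons, width included). In FLAG-SNAP1 replicate 1 the median fold was 5.10 inside genes and 6.08 beside them, and in FLAG-SNAP4 replicate 1 it was 4.43 and 4.49, the narrowest gap.

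Peaks inside genes had a mean of library medians of 508 bp against 415 bp beside genes, wider by 93.1 ± 43.0 bp (SD, n = 8) and in 8 of 8 libraries. The rule limited peak width for both kinds of site, so this is a description with no test. The summit of a library lay a median of 50.7 bp from the median summit of its site inside genes and 31.2 bp beside genes, a difference of 19.5 ± 6.40 bp (SD, n = 8) and in 8 of 8 libraries (exact permutation test, p = 0.00781). All 3 differences shrank among sites with 1 peak in each library, to -0.07 in log2 fold (exact permutation test, p = 0.0234), 50.4 bp in width and 6.0 bp in summit offset (p = 0.0234). With the 4 TFs rather than the 8 libraries as units, the smallest p the exact test allows is 0.125. All 8 libraries were scored on the same sites, and offsets were taken from a median summit that they share. The p-values for fold and offset therefore do not cover the spread over sites. A summit lies within its peak, and the rule limited peak width, so the offset is not independent of the rule. The p-value for offset thus cannot separate placement from width. How much of the offset difference comes from width was not tested.

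**Figure D3:**
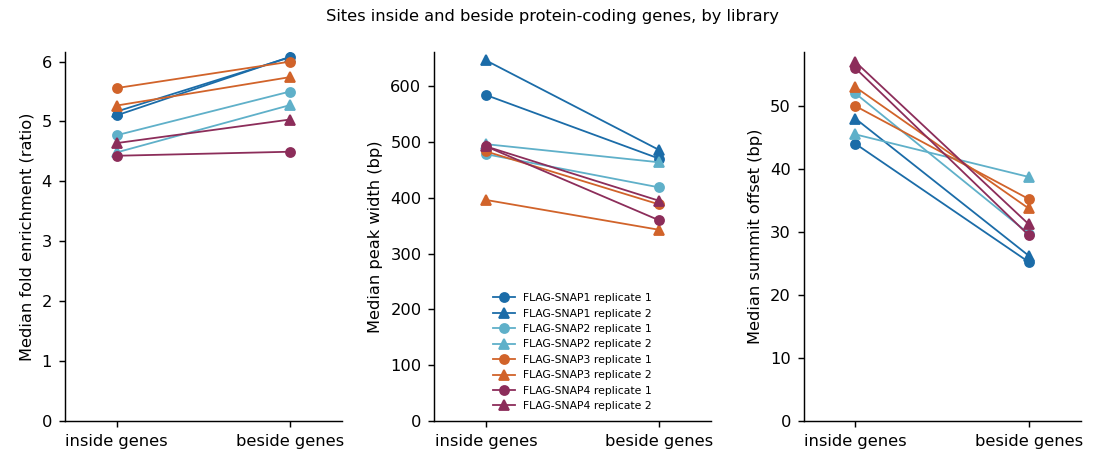
Median fold enrichment (ratio), peak width (bp) and distance of the summit from the site's median summit (bp) for sites inside and beside protein-coding genes, 1 line per library; colours are TFs, circles replicate 1 and triangles replicate 2. All 8 lines rise from inside to beside in fold and fall in width and in summit offset.

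Genes with a symbol of their own in the annotation, rather than a LOC number, allow a view by function. Of 2348 such genes 22 held a site (0.937%, against 0.493% of all protein-coding genes). The families below were picked after it was seen which genes held sites, so the counts are descriptions. Many of these genes encode TFs.

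Heat shock TFs, which activate chaperone genes under heat and other stress, had sites in 5 of 37 genes named HSF. HSF-16, at chr9:42401805-42402641 and 5 bp inside the gene end, had folds of 5.97 and 7.01 with FLAG-SNAP1, 6.25 and 6.82 with FLAG-SNAP2, 10.5 and 7.94 with FLAG-SNAP3, and 4.54 and 5.28 with FLAG-SNAP4. In these folds as deposited the FLAG-SNAP3 libraries were the highest and the FLAG-SNAP4 libraries the lowest. After median centring FLAG-SNAP4 and FLAG-SNAP1 were nearly level, at -0.08 and -0.07 (log2), with FLAG-SNAP3 highest at 0.47. The difference among the TFs missed the threshold of the test given below (adjusted p = 0.0594, F test of limma). HSF-18 had a mean fold of 5.30 ± 1.01, HSF-32 4.73 ± 0.684, HSF-20 4.47 ± 0.557 and HSF-01 3.80 ± 0.436 (SD, n = 8 each). HSF-01 lay 217th of the 235 sites, so the group spans most of the order. None of the 5 passed the test among TFs after median centring, and with values as deposited HSF-16 did (adjusted p = 0.0251, limma).

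WRKY TFs, which act in defence, stress and senescence, had sites in 4 of 61 genes. Their mean folds were 4.50 ± 1.15 in WRKY16, 4.29 ± 0.594 in WRKY47, 3.66 ± 0.383 in WRKY42 and 3.66 ± 0.610 in WRKY13 (SD, n = 8 each), all below the median of the 235 sites. WRKY42 was the most even, between 2.90 and 4.10 in the 8 libraries, and also had a site beside it. No gene named NAC, MYB or BZIP held a site, of 41, 70 and 77. With a site in 0.937% of all genes with a symbol, families of this size cannot show a lack of sites. Regions with a peak in at least 1 library, with no limit on width or tRNA genes, lay inside 14, 16 and 24 of them. Such regions lay inside 36 of the 61 WRKY genes and 517 of all 2348 genes with a symbol.

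RAV1, a TF with AP2 and B3 domains, was 1 of 6 genes with 2 sites. They lay next to each other at chr1:26490543-26491682 and chr1:26491788-26492590 and each crossed a gene end, with mean folds of 3.63 ± 0.380 and 4.01 ± 0.780 (SD, n = 8). The second had folds of 2.79 and 3.65 with FLAG-SNAP1, 4.24 and 4.42 with FLAG-SNAP2, 4.75 and 5.20 with FLAG-SNAP3, and 3.63 and 3.43 with FLAG-SNAP4. It passed the test among TFs (adjusted p = 0.0347, F test of limma) and was lowest with FLAG-SNAP1. The call was lost after quantile normalization and on centring on the sites inside genes (adjusted p = 0.138 and 0.0633, limma). LBD30, of the LATERAL ORGAN BOUNDARIES DOMAIN family, passed the test (adjusted p = 0.00744, F test of limma) but not with values as deposited (0.0515) or after quantile normalization (0.0564), with 3.41 and 3.38 for FLAG-SNAP1 and 4.28 to 5.22 for the other libraries.

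Of the other symbols, SRC1 and SRC2 are cold-regulated genes, STF-3 has the synonym SCOF-1 and encodes a cold-inducible zinc finger protein, ERF6 is an ethylene response factor and GSTU47 a glutathione S-transferase of the tau class. SRC2 had folds of 7.24 and 8.42 with FLAG-SNAP3, against 4.61 and 4.26 with FLAG-SNAP2 (adjusted p = 0.0421, F test of limma). The call of SRC2 was lost after quantile normalization (adjusted p = 0.122) and on centring on the sites inside genes (0.0674, limma). GSTU47 passed the same test (adjusted p = 0.0439, F test of limma) but under none of no centring, quantile normalization, centring on the sites inside genes and percentiles (0.125 to 0.225). STF-3, ERF6 and SRC1 did not pass, and with values as deposited STF-3 and ERF6 did (0.0419 and 0.0295, limma). HS1pro1, a homologue of a nematode resistance gene, and PTS-L4 also held sites, with mean folds of 3.80 ± 0.608 and 4.64 ± 0.851 (SD, n = 8 each), and neither passed, though PTS-L4 did with values as deposited (adjusted p = 0.0300, limma). In the comparison of SNAP1/2 with SNAP3/4 given below, STF-3, ERF6 and GSTU47 were lower with SNAP1/2 after median centring (limma adjusted p = 0.0252, 0.0406 and 0.0304). These calls were lost with no centring, quantile normalization, centring on the sites inside genes and percentiles (limma adjusted p = 0.111 to 0.262).

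**Figure D4:**
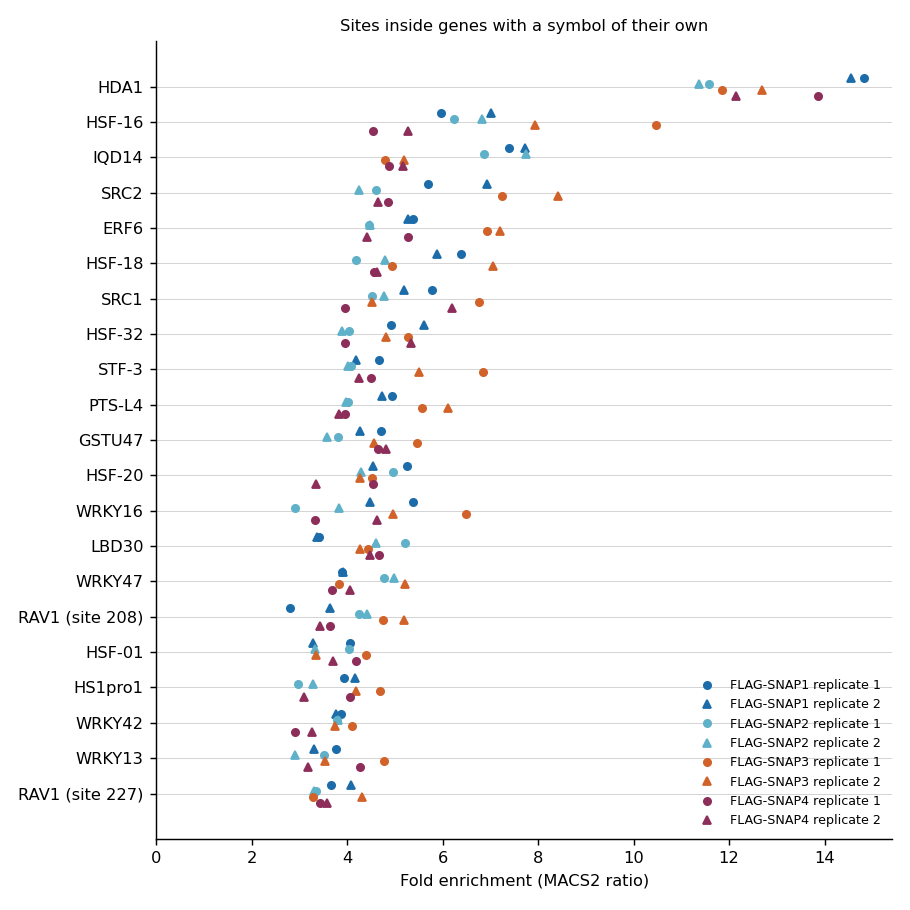
Fold enrichment in each of the 8 libraries at 21 sites whose gene has a symbol of its own, ordered by mean log2 fold (PARP3, which overlaps LOC100816284, is not drawn); colours are TFs, circles replicate 1 and triangles replicate 2. HDA1 stands apart at 11.4 to 14.8, HSF-16 reaches 10.5 with FLAG-SNAP3, and most of the others lie between 3 and 8.

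Whether the height of a site differed among the 4 TFs was tested with limma on log2 fold, after the median over the 1279 regions in all 8 libraries was taken off in each library, with Benjamini-Hochberg adjustment over all 1279. By the F test 47 of 235 sites differed (20%), against 17.6% of all 1279 regions and 17% of the 1044 others. At an unadjusted p under 0.05 there were 100 sites. The count depended on scaling: it was 69 with values as deposited, 26 when centred on the sites inside genes, 24 when centred on regions with no tRNA gene within 500 bp and 9 after quantile normalization. On the percentile of a peak within its library limma called 0 sites, with 53 at an unadjusted p under 0.05. The share over all 1279 regions was counted only after median centring, so the other counts cannot be set against it.

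The direction between the TF pairs depended on it more. The mean of FLAG-SNAP1 and FLAG-SNAP2 was compared with that of FLAG-SNAP3 and FLAG-SNAP4, since the study treats SNAP1/2 and SNAP3/4 as pairs. After median centring, 44 sites were lower with SNAP1/2 (18.7%, against 9.07% of all regions) and 3 were higher (1.28%, against 2.42%). With no centring the calls were 6 lower and 6 higher, centred on the sites inside genes 10 and 10, centred on regions with no tRNA gene near 10 and 6, and after quantile normalization 6 and 1. The median difference over the 235 sites was -0.19 on the log2 scale after median centring and -0.05 with values as deposited, and over all 1279 regions it was -0.06 and 0.09, so centring itself moved every value by -0.15. Of the 1279 regions, 495 had a tRNA gene within 500 bp, and their median log2 fold was 2.37 and 2.69 with FLAG-SNAP4 but 2.90 to 3.10 with the other TFs. The median of the sites inside genes spanned less, 2.15 and 2.21 with FLAG-SNAP4 and 2.16 to 2.47 in the others. The balance of the 2 directions thus changed with the scaling. Calls between the pairs were counted over all 1279 regions only after median centring. Whether the sites inside genes differ from all regions under another scaling is therefore not shown.

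**Figure D5:**
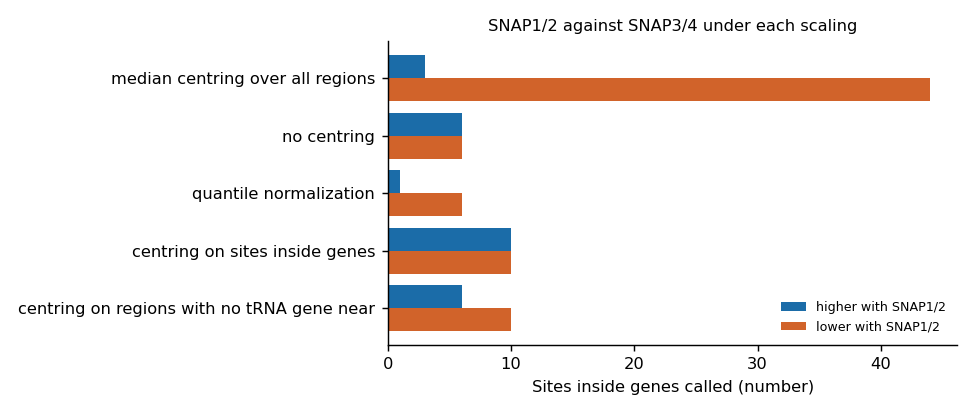
Number of the 235 sites inside genes called higher (blue) or lower (orange) with SNAP1/2 than with SNAP3/4 at an adjusted p of 0.05 or less in limma, under 5 scalings of the libraries. The split is 3 to 44 after centring on the median of all regions and 6 to 6 with values as deposited.

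Under median centring, no centring, quantile normalization and centring on the sites inside genes alike, 4 of 235 sites were called between the pairs, 3 lower and 1 higher with SNAP1/2. The same count was not made over all 1279 regions, so the 4 are described as single sites. On the percentile scale LOC100788566, the higher one, kept its call (limma adjusted p = 0.0420), and LOC100782994 (0.0647), LOC100800749 (0.116) and LOC100800547 (0.0605) lost theirs. LOC100782994, at chr6:47752299-47753098 and 63 bp from a gene end, had folds of 4.81 and 4.92 with FLAG-SNAP1, 6.23 and 6.24 with FLAG-SNAP2, 10.2 and 9.77 with FLAG-SNAP3, and 5.41 and 7.85 with FLAG-SNAP4. The FLAG-SNAP3 libraries stood above all others, and SNAP1/2 minus SNAP3/4 was -0.70 ± 0.11 (log2, SE; limma adjusted p = 0.00317, and 0.0372 with no centring). In the folds as deposited its FLAG-SNAP4 replicate 1 lay below both FLAG-SNAP2 libraries.

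LOC100800749, at chr10:38905240-38905710, had folds of 5.16 and 4.47, 5.95 and 5.87, 7.96 and 6.73, and 6.95 and 6.61 with FLAG-SNAP1 to FLAG-SNAP4, and here the 4 libraries of SNAP1/2 all lay below the 4 of SNAP3/4 (difference -0.55 ± 0.12, log2, SE; limma adjusted p = 0.00930, and 0.0493 with no centring). LOC100800547, at chr17:5035209-5036152, had 5.005 and 4.65, 3.67 and 3.16, 7.27 and 6.22, and 4.44 and 4.39 (-0.57 ± 0.11; limma adjusted p = 0.00853, and 0.0478 with no centring). In the folds as deposited FLAG-SNAP4 lay between FLAG-SNAP1 and FLAG-SNAP2, and after median centring it lay above both, at -0.23 against -0.49 and -0.85 (log2), with FLAG-SNAP3 highest at 0.03.

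The site higher with SNAP1/2 was in LOC100788566, at chr17:34766476-34767326. Its fold was 7.23 and 7.30 with FLAG-SNAP1, 8.38 and 7.06 with FLAG-SNAP2, 5.57 and 5.54 with FLAG-SNAP3, and 4.19 and 4.10 with FLAG-SNAP4, so the pairs did not overlap and FLAG-SNAP4 was lowest (0.49 ± 0.11, log2, SE; limma adjusted p = 0.0127, and 0.0305 with no centring). IQD14, named for the IQ67-domain family of calmodulin-binding proteins, had folds of 7.40 and 7.72, 6.88 and 7.75, 4.80 and 5.19, and 4.87 and 5.18 with FLAG-SNAP1 to FLAG-SNAP4, and here too the pairs did not overlap (0.42 ± 0.11; limma adjusted p = 0.0269). Its call was lost under 5 of 16 alternatives, where the adjusted p reached 0.105. The third, LOC100784365 (0.36 ± 0.11; adjusted p = 0.0472), passed under 4 of 16.

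LOC100527032 and LOC100819484, 218th and 191st in the order, were lower with SNAP1/2 by -0.61 ± 0.11 and -0.57 ± 0.11 (log2, SE; limma adjusted p = 0.00767 and 0.00853), and LOC100785430 by -0.54 ± 0.11 (0.00877). In the folds as deposited the FLAG-SNAP3 libraries were the highest at all 3, at 5.28 and 5.34, 5.64 and 5.15, and 8.77 and 8.84. After median centring FLAG-SNAP4 was highest in LOC100819484, at -0.27 against -0.29 for FLAG-SNAP3 (log2). Quantile normalization ended the calls of LOC100527032 and LOC100819484 (limma adjusted p = 0.0558 for both) and no centring that of LOC100785430 (0.0575).

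Among the strongest sites the TFs also parted. Of the 20 strongest, 12 differed by the F test after median centring, against 20% of all 235 sites and 17.6% of the 1279 regions. These shares cover sites and regions of every height. The share among other regions of like height was not counted, so whether strong regions in general differ as often was not tested. All 12 were then highest with FLAG-SNAP4, but with values as deposited 6 were highest with FLAG-SNAP1 and 6 with FLAG-SNAP4. Centred on the sites inside genes, 3 were highest with FLAG-SNAP1 and 9 with FLAG-SNAP4. The smallest adjusted p of this test belonged to LOC100790070, at chr12:8089214-8089562 and 4710 bp from a gene end, with folds of 10.6 and 8.96 with FLAG-SNAP1, 6.41 and 5.83 with FLAG-SNAP2, 6.66 and 6.57 with FLAG-SNAP3, and 12.1 and 11.2 with FLAG-SNAP4 (adjusted p = 0.000371 by the F test of limma, and 0.0101 with no centring). Both libraries of FLAG-SNAP1 and of FLAG-SNAP4 were above all 4 of FLAG-SNAP2 and FLAG-SNAP3.

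In LOC100809372, at chr14:46353018-46353411 and 2914 bp from an end, the folds were 11.1 and 12.7, 9.11 and 10.8, 7.68 and 4.95, and 12.7 and 13.4 with FLAG-SNAP1 to FLAG-SNAP4 (adjusted p = 0.000578, F test of limma). FLAG-SNAP3 was lowest there. The same gene held a second site, at chr14:46344463-46344996 and 468 bp from an end. There FLAG-SNAP3 was highest with 6.39 and 7.89, and the other libraries ran from 4.64 to 5.43. This second site missed the threshold (adjusted p = 0.0968, F test of limma). It passed with values as deposited (0.0369), but not after quantile normalization or centring on the sites inside genes (0.216 and 0.239, limma). LOC121174152, at chr19:51052103-51052457, had 13.7 in both FLAG-SNAP4 libraries and 6.11 to 10.3 in the other 6 (adjusted p = 0.00125, F test of limma; 0.0564 after quantile normalization). LOC100781164, at chr19:250434-251007, had 9.13 and 10.4 with FLAG-SNAP1 and 8.26 and 8.91 with FLAG-SNAP4, above the 5.46 to 7.24 of the other 4 (adjusted p = 0.00325, F test of limma). Of the 12 called among the 20 strongest, LOC100790070, LOC100809372 and LOC100781164 alone kept their F test call under 4 scalings. The scalings were median centring, no centring, quantile normalization and centring on the sites inside genes. On the percentile scale they did not pass (adjusted p = 0.0758, 0.120 and 0.128, limma).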

How the data were processed

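ChIP-seq peak lists of 8 libraries were analysed, 2 replicates for each of 4 FLAG-tagged TFs. Reads had been trimmed by the authors (Trim Galore 0.6.6) and mapped with Bowtie2 2.3.4.3 on the Wm82 a4.v1 genome. Unique, proper pairs went into MACS2 2.2.7.1 (q-value of 0.05), 1 library at a time. A control library and the removal of duplicates are not given in the sources used here, and duplicates could raise a fold. For each peak the authors deposited the summit, a score, −log10 values of p and q, and the fold enrichment, a ratio. The fold was used as the height and the −log10 q-value only for a stricter limit; the score and the p-value were not used. Lists with fewer peaks miss weak sites, and folds are not adjusted between libraries.

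Genes came from RefSeq's annotation of Glycine_max_v4.0, which here gave no strand, product names or sequences. The distance to the gene start was therefore replaced by the distance to the nearest gene end. The members and lists were chosen with earlier results of these data known. The sites named were the 20 highest by mean log2 fold, the 5 with the smallest adjusted p of the F test, the 5 with the smallest adjusted p in each direction between SNAP1/2 and SNAP3/4, and those next to a threshold of the rule; sites in genes with a symbol, sites called under all 4 scalings, and the second sites of a gene were named after their values were seen. Of the 5 in the higher direction, LOC100805691 (0.33, adjusted p = 0.0799) and LOC100804035 (0.31, adjusted p = 0.0998) missed the threshold. The site of 1 gene with a symbol is not reported here.

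Inside and beside sites were compared by exact sign-flip permutation tests over libraries, with no test given for width, which the rule used, and TFs by limma 3.58.1 in R 4.3.3. Other steps used Python 3.11.15, pandas 2.3.3 and SciPy 1.17.1. The steps were tested on simulated data. Alternatives were other q-value, distance and width limits, summits, scalings, a replicate block, 1 peak per library and leaving out each library; the centring on sites inside genes or on regions without a tRNA gene near, the summit as position for inside and beside sites, and leaving out sites over 2 kb from a gene end were added after seeing the data.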

Additional observations from a re-analysis of the deposited data

How the results depend on the processing

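The 235 sites became 108 with a q-value of 0.0001, 150 with peaks cut to 100 bp on each side of the summit, 152 with a width limit of 1000 bp and 352 with no limit, 225 with the summit inside the gene, and 250 to 344 without 1 library. The share near a gene end was 31.5% within 200 bp, 91.1% within 1 kb, 67.2% by midpoint and 73.4 to 76.5% without 1 library. Inside minus beside kept its direction under every alternative run; with the 4 TF means as units the differences of -0.162 in log2 fold and 19.5 bp in summit offset cannot pass (exact permutation test, p = 0.125), the width difference is 93.1 bp as before, and without 1 library they were -0.182 to -0.149, 83.5 to 102 bp and 18.5 to 21.3 bp. Means in place of medians gave a summit offset difference of 64.3 bp, and a q-value of 0.0001 a fold difference of -0.246. The summit as position and the sites without those over 2 kb from an end, both added after seeing the data, changed no call.

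Of 235 sites, the F test called 47 (20%) and SNAP1/2 against SNAP3/4 also 47, both after median centring. Over all 1279 regions the F test then called 17.6%. Between the pairs 9.07% of them were lower and 2.42% higher with SNAP1/2. The other counts given here have no such share to be set against. Quantile normalization gave 9 and 7, the percentile 0 and 6, only sites inside genes in the fit 30 and 15, centring on them 26 and 20, and centring on regions with no tRNA gene near 24 and 16. No centring gave 12 between the pairs and 1 peak per library 26. Without 1 library the counts were 27 to 69 and 9 to 54; between the pairs they were 9 without FLAG-SNAP2 replicate 2, 15 without FLAG-SNAP4 replicate 1, 17 and 18 without FLAG-SNAP1 replicate 2 and 1, and 21 without FLAG-SNAP2 replicate 1, where the lone library of a TF is assumed to vary like the others. The cause of the changes was not tested. On the percentile scale, none of the 5 sites with the smallest F test p passed, at an adjusted p of 0.0697 to 0.267.

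With the replicate number as a block the counts were 42 and 41. The labels give only numbers, and deviations of same-numbered libraries correlated between -0.0792 and 0.0428 over 1279 regions for the 6 pairs of TFs. The median of each library had been taken off first, so a shift common to a whole library cannot be seen in them. Whether same-numbered libraries shared a batch is not known.

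Planned and not run, for want of sequences and product names in the tables used here, were the CACGT motif in promoters, closest paralogs and gene lists by description.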
